A study of Rattus norvegicus with 11 samples.

Results

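The genes described are 9 neuronal calcium-binding proteins, namely Calb1, Calb2, Pvalb, Hpca, Hpcal1, Vsnl1, Ncald, Calm2 and Calm3. They were found by gene name among the non-control probes of the array, and every probe was kept apart. All 9 genes had a probe, with 15 probes of the 41012 on the array and 9 of the 35581 gene names it carries. RNA came from the medial prefrontal cortex of 6 rats that had self-administered heroin and of 5 yoked saline rats; a further saline array that the methods count was not analysed here. All were 4-month-old males that had 14 days of abstinence and then an extinction session, in which spouts could be licked but no drug was given. Each rat had 1 single-colour (Cy3) Agilent whole rat genome array, and the yoked saline rats never received heroin. The comparison asks which genes differ in this region after abstinence and a return to the place where the drug had been taken. Calb1 is among the genes the study itself picked from these same arrays, so its change here is not independent evidence of that choice.

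Calcium that enters a neuron during firing is bound by proteins with EF-hand loops. Some of them, such as calbindin, calretinin and parvalbumin, act mostly as buffers that shape how long the calcium signal lasts, and in the cortex they mark classes of inhibitory interneuron, although calbindin is also made by some pyramidal cells. Others act as sensors: calmodulin and the neuronal calcium sensor proteins hippocalcin, hippocalcin-like 1, visinin-like 1 and neurocalcin delta change shape when calcium binds and then act on enzymes, channels and membranes. The arrays measured RNA of bulk tissue, in which fewer cells of a type and less RNA per cell cannot be told apart.

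The sequences of the Calb1 and Ncald probes are shown because probes of these genes gave unlike readings. Probes are numbered in their order along the chromosome, and the first 30 bases of each 60-base probe are given as the array files list them, in lower case. Positions are those in the files, in rat build rn3, and where each probe falls among exons and untranslated regions was not analysed here.
Calb1 probe 1, at chr5:30475783-30475991 on the plus strand: aggaaaatttccttcttaaattccagggaa
Calb1 probe 2, at chr5:30479753-30479812 on the plus strand: tgtgcgttttccatctagtggaagggatgt
Calb1 probe 3, at chr5:30480258-30480317 on the plus strand: tataatggtgacatggaaaaaatactgctg
Calb1 probe 4, at chr5:30480350-30480409 on the plus strand: tcccagacaccacaagataccaacaagagc
Ncald probe 1, at chr7:72897082-72897141 on the minus strand: ttgaaatgagggctggaaataaaatctcct
Ncald probe 2, at chr7:72902514-72902573 on the minus strand: atggtctcctcggtcatgaaaatgcctgaa
The first Calb1 probe covers 209 genome bases with its 60, so its target is split in the genome, while the other Calb1 probes lie on 60 genome bases each and within 657 bases of each other. GC content was 35% in the first Calb1 probe, 45% in probes 2 and 4 and 41.7% in probe 3. Over the 15 member probes it ran from 30% to 50%, around a median of 43.3% for all tested probes.

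Signals are given as multiples of the median probe of the same array, after values below 5 were set to 5, and changes are differences in mean log2 signal, heroin minus saline. A probe was called where its change was at least 1.4-fold with an unadjusted limma p below 0.02, the limits used by the study. All 15 member probes were above background on all 11 arrays. Median array signals ran from 43.0 to 78.7 in heroin rats and from 58.3 to 83.6 in saline rats. The scaling mattered for direction: the median log2 change of the 25555 tested probes was 0.18 and 78.7% of them were above zero, against 0.01 and 53.2% after quantile normalization. Changes are therefore read against that shift, with the quantile value beside them. The 11 arrays were read on 1 day in 6 scans, and a heroin and a saline array of the same replicate number shared a scan for numbers 2 to 6. Every heroin array sat at slide position 4 and every saline array at position 3, so position and group cannot be told apart. The methods describe each saline rat as yoked to a heroin rat, but no source used here says that replicate numbers mark these matches.

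Calb1, which encodes the calcium buffer calbindin, gave both calls among the members. Its probes 1 and 2 were higher in heroin rats, by 1.53-fold and 1.42-fold, and neither was called after quantile normalization, nor with arrays scaled to the 75th percentile or to the median of detected probes. Probe 1 was also not called by the methods' t-test, and probe 2 was not called with normexp background correction. Its probes 3 and 4 were not called, with changes of 1.18-fold and 1.16-fold. Calls among the 15 member probes thus came to 2, or 13.3%, both higher, where 2.72% of all tested probes were called, 1.79% higher and 0.927% lower. No member probe was called after quantile normalization, where 1.79% of all tested probes were.

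The second Calb1 probe read 27.8, 20.5, 28.4, 31.7 and 25.2 array medians in saline rats 2 to 6. In the 6 heroin rats its lowest signal was 31.8, its median 37.2 and its highest 46.3. The heroin and saline rats did not overlap, by a narrow margin between heroin rat 5 and saline rat 5. It was the only member probe whose groups did not overlap, or 6.67% of the 15, where 1.44% of all tested probes had all heroin arrays above all saline arrays. The means were 37.9 ± 4.70 (SD, n = 6) and 26.7 ± 4.20 (SD, n = 5). The log2 change was 0.51 with a standard error of 0.14 (95% interval 0.21 to 0.81), with a limma adjusted p of 0.263 over all tested probes and an exact two-sided permutation p of 0.00433. After quantile normalization the log2 change was 0.26 (95% interval 0.01 to 0.52) and the groups overlapped.

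The first Calb1 probe had the largest change of the members. Saline rats 2 to 6 read 12.2, 8.41, 17.3, 20.0 and 13.5 array medians, and heroin rats had a lowest signal of 17.8, a median of 20.6 and a highest of 23.9. Heroin rats lay close together while saline rats were spread widely, and 4 of the 6 heroin rats were above all saline rats. The log2 change was 0.61 with a standard error of 0.19 (95% interval 0.20 to 1.02), with a limma adjusted p of 0.263 and an exact permutation p of 0.00649. After quantile normalization it was 0.37 (95% interval 0.04 to 0.71), larger than in 95.6% of the tested probes. Without saline rat 3, the lowest of the 11 on both called probes, the log2 changes were 0.44 and 0.42 and neither probe was called. Without heroin rat 2, the highest of the 11 on probe 2, that probe had a log2 change of 0.45 and was not called.

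The third Calb1 probe is printed in 10 spots on each array, and the SD of its log2 signal across those spots had a median of 0.13 within an array, against 0.17 among heroin rats and 0.27 among saline rats. It read 4.54, 4.42, 5.04, 7.02 and 5.37 array medians in saline rats 2 to 6, and 4.92, 6.24 and 6.80 as the lowest, median and highest of the heroin rats. Saline rat 5 was above every heroin rat and heroin rat 5 was below the other heroin rats. The log2 change was 0.24 (95% interval -0.07 to 0.55), near the 0.18 of all tested probes, and 0.02 after quantile normalization. The fourth probe read 6.37, 6.99, 7.34, 9.004 and 6.97 in saline rats 2 to 6 and from 6.66 to 9.996 around a median of 8.40 in heroin rats, which overlapped widely. Its log2 change was 0.21 (95% interval -0.08 to 0.50), and it turned to -0.02 after quantile normalization.

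**Figure D1:**
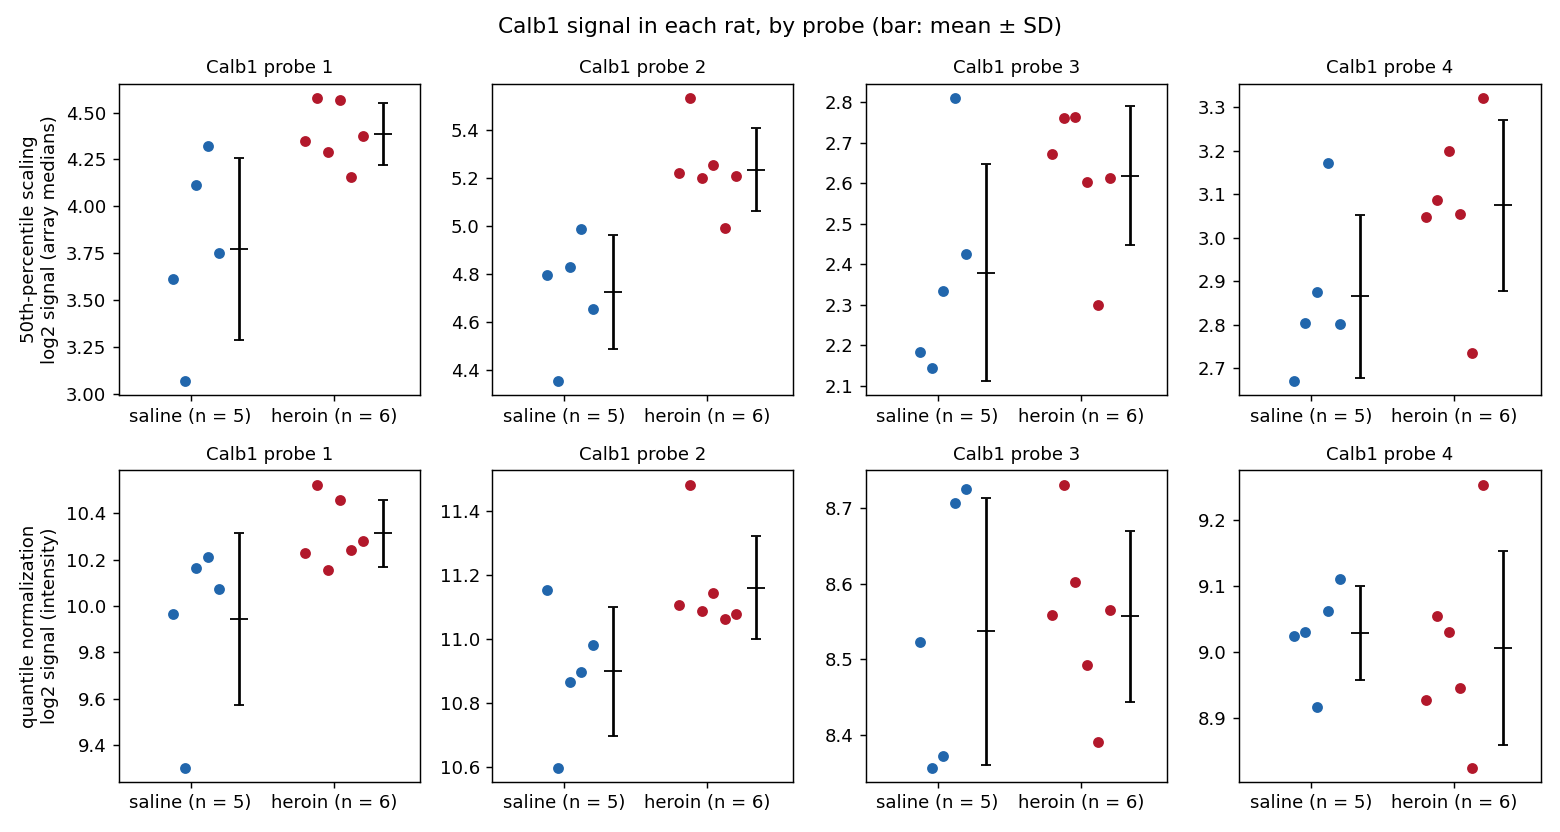
Log2 signal of the 4 Calb1 probes in each of 5 saline (blue) and 6 heroin (red) rats, after 50th-percentile scaling (upper row, in multiples of the array median) and after quantile normalization (lower row), with the mean and SD of each group in black. Each panel has its own axis; the groups are apart for probe 2 in the upper row and overlap in every other panel.

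Because a scaling factor cancels within an array, the probes of a gene were also set against each other in each rat, as the difference of their log2 signals. Of the 9 pairs of probes of the same gene, 6 are within Calb1. The first probe gained on the third by 0.37 and on the fourth by 0.40 in heroin rats relative to saline rats, with exact permutation p of 0.0238 and 0.0325. The second gained on the third by 0.27 and on the fourth by 0.30, with exact permutation p of 0.0303 and 0.0368. After Benjamini-Hochberg adjustment over the 9 pairs each of these p-values was 0.0828, so unequal change between called and uncalled Calb1 probes was not past a threshold of 0.05. Called and uncalled probes were sorted by their change in these same arrays, so a gap between them was favoured beforehand. The pairs also share probes, and no conclusion is drawn from their p-values. The called pair differed from each other by 0.10 and the uncalled pair by 0.03, with exact permutation p of 0.405 and 0.688. After quantile normalization the called pair followed each other across the 11 arrays with a Pearson r of 0.79, probe 3 had an r of 0.51 with probe 2, 0.45 with probe 1 and 0.54 with probe 4, and probe 4 had an r of 0.04 with probe 2 and -0.05 with probe 1. Before quantile normalization all 6 pairs had an r between 0.66 and 0.93. All of these points share their arrays, and the values are a description.

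**Figure D2:**
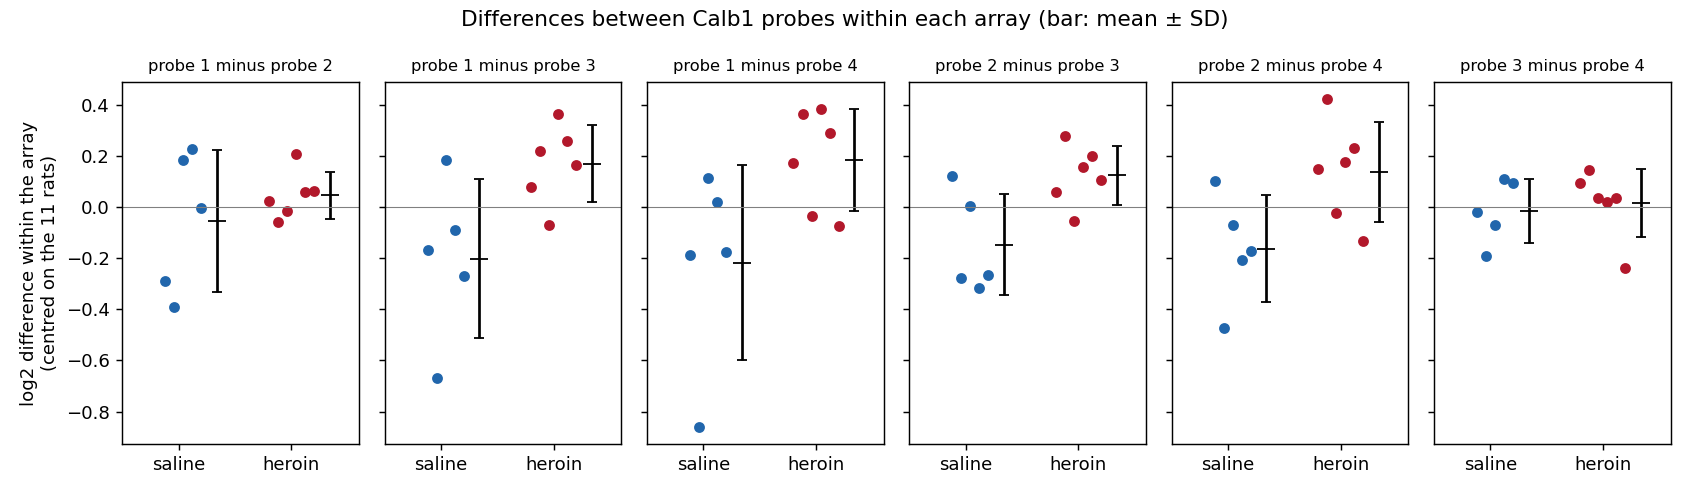
Differences in log2 signal between pairs of Calb1 probes within each array, centred on the mean of the 11 rats, for saline (blue) and heroin (red) rats, with the mean and SD of each group in black. The 4 panels that set probe 1 or 2 against probe 3 or 4 have higher heroin means, with overlap between groups in each.

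Within the 5 scans that held 1 heroin and 1 saline array, the second Calb1 probe was higher in the heroin array in 5 of 5, with log2 differences from 0.002 to 0.84. The first probe was higher in 4 of 5, with differences from -0.17 to 1.22. After quantile normalization both were higher in all 5 scans, from 0.10 to 0.49 for the second probe and from 0.03 to 0.85 for the first. Probes 3 and 4 were each higher in 4 of 5 scans before quantile normalization, and in 3 and 4 of 5 after it. Scan 5 stood apart from the others over all members, with 5 of 15 probes higher in the heroin array, against 15, 15, 13 and 12 in scans 2, 3, 4 and 6. The median log2 difference of all tested probes was -0.10 in scan 5 and 0.12 to 0.28 in the others.

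**Figure D3:**
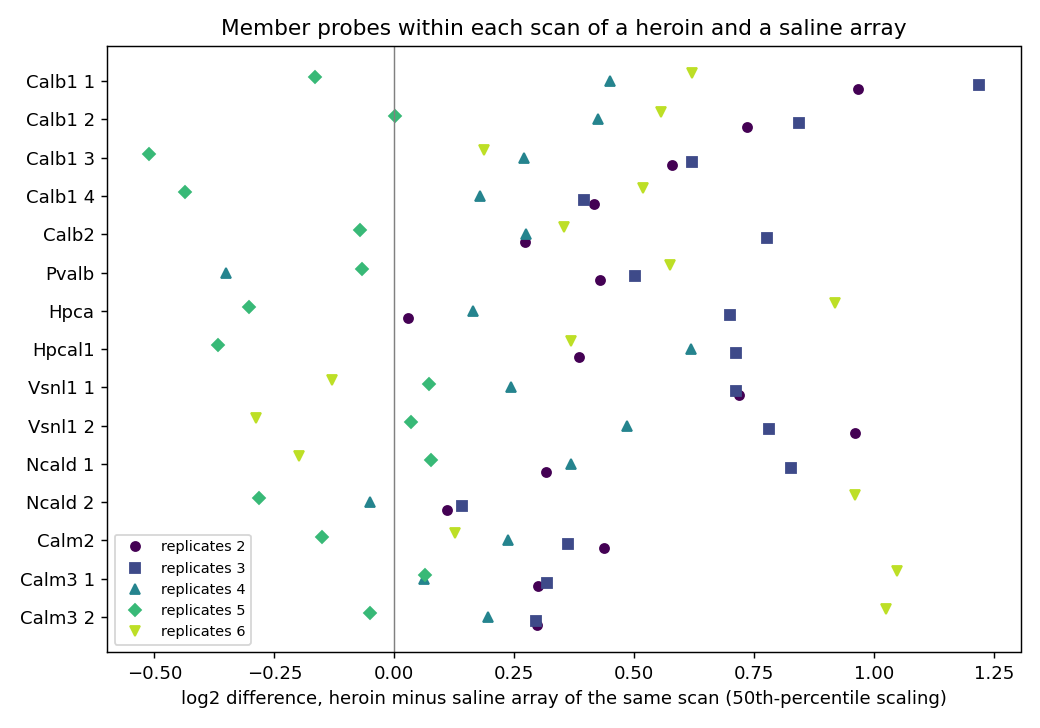
Log2 difference between the heroin and the saline array of each of 5 scans for the 15 member probes, after 50th-percentile scaling; marker shape and colour give the replicate number of the scan. Points of replicates 5 lie left of the others for most probes, and those of replicates 6 range from -0.29 for Vsnl1 probe 2 to 1.05 for Calm3 probe 1.

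The other interneuron buffers, Calb2 (calretinin) and Pvalb (parvalbumin), were not called. The Calb2 probe, at chr19:40028075-40028135, read 15.1, 9.64, 16.1, 14.6 and 12.4 array medians in saline rats 2 to 6 and from 13.9 to 19.4 around a median of 16.2 in heroin rats. Of the 6 heroin rats, 3 were above all saline rats. The log2 change was 0.31 (95% interval -0.01 to 0.63, limma adjusted p = 0.273) and 0.07 after quantile normalization. Pvalb, at chr7:116148929-116148988, read 23.7, 30.8, 34.6, 35.9 and 30.2 in saline rats 2 to 6 and from 27.1 to 45.0 around a median of 33.1 in heroin rats. Its groups overlapped over most of their range. Its log2 change of 0.16 (95% interval -0.19 to 0.52) was the smallest of the members and lay below the 0.18 of all tested probes, and it was -0.08 after quantile normalization (95% interval -0.39 to 0.23).

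Among the neuronal calcium sensors, Hpca (hippocalcin, at chr5:148278232-148278293) read 125, 105, 124, 138 and 94.3 array medians in saline rats 2 to 6 and from 112 to 178 around a median of 138 in heroin rats. Its log2 change was 0.29 (95% interval -0.03 to 0.62) and 0.05 after quantile normalization. Hpcal1 (hippocalcin-like 1, at chr6:41579165-41579224) read 6.74, 4.12, 5.08, 7.55 and 5.18 in saline rats 2 to 6 and from 5.85 to 8.81 around 7.26 in heroin rats. For both genes saline rat 5 was the highest saline rat and heroin rat 5 the lowest heroin rat, and the groups overlapped. The Hpcal1 log2 change was 0.36 with an unadjusted limma p of 0.0439 and an adjusted p of 0.268, and 0.14 after quantile normalization (95% interval -0.19 to 0.48).

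The probes of Vsnl1 (visinin-like 1) lie 973 bases apart on chromosome 6, at chr6:34773184-34773243 and chr6:34774157-34774216. The first read from 266 to 415 array medians in saline rats and from 286 to 468 in heroin rats. The second read 65.9, 80.2, 79.5, 109 and 85.8 in saline rats 2 to 6, and 70.3, 111 and 138 as the lowest, median and highest of the heroin rats. On the second probe 5 of 6 heroin rats were above all saline rats and heroin rat 6 was below 4 of the 5. The log2 changes were 0.32 (95% interval -0.01 to 0.66) and 0.40 (95% interval 0.02 to 0.77, limma adjusted p = 0.264), and 0.08 and 0.15 after quantile normalization. Both probes followed each other across rats, with an r of 0.94 over the 11 arrays after quantile normalization, and their difference within an array changed by -0.07 between groups. Without heroin rat 6 the second probe was called, with a log2 change of 0.53, and without saline rat 5 it was called with 0.50.

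The probes of Ncald (neurocalcin delta) lie 5432 bases apart and did not follow each other: their r over the 11 arrays was -0.36 after quantile normalization and -0.01 before it. The first read from 16.2 to 21.7 array medians in saline rats and from 18.9 to 32.6 in heroin rats, and the second from 9.81 to 14.4 and from 10.04 to 19.1. Heroin rat 6 had the highest signal of the 11 on the second probe and the lowest of the heroin rats on the first. The log2 changes were 0.30 (95% interval -0.02 to 0.61) and 0.20 (95% interval -0.16 to 0.55), and 0.05 and -0.04 after quantile normalization.

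Calm2 and Calm3 encode calmodulin, the general calcium sensor. The Calm2 probe, at chr6:10952801-10952860, was saturated on 4 of the 11 arrays, those of heroin rats 1, 3 and 5 and saline rat 5, so the readings of those rats are lower bounds: 878, 876 and 813 array medians in the heroin rats and 903 in the saline rat. With these taken at their value, it read from 656 to 903 array medians in saline rats and from 813 to 959 in heroin rats, a log2 change of 0.21 (95% interval -0.05 to 0.46) and 0.07 after quantile normalization. The Calm3 probes lie at chr1:77322280-77322339 and chr1:77323722-77323781. The first read 154, 188, 264, 208 and 163 in saline rats 2 to 6 and from 190 to 338 around 231 in heroin rats. The second read 359, 373, 442, 413 and 340 in saline rats and from 399 to 693 around 455 in heroin rats, where heroin rat 6 had the highest reading on both. Their log2 changes were 0.34 (95% interval -0.03 to 0.71) and 0.33 (95% interval 0.02 to 0.65, limma adjusted p = 0.264), the latter with an exact permutation p of 0.0238. After quantile normalization they were 0.10 and 0.08.

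Over the members as a whole, all 15 log2 changes were above zero, with a median of 0.31, where the median over all tested probes was 0.18. After quantile normalization 12 were above zero and 3 below, with a median of 0.07 against 0.01. With limma 5 of the 15 member probes had an unadjusted p below 0.05, against 18.5% of all tested probes. After quantile normalization 2 of the 15 did, both of Calb1, against 7.71% of all tested probes. No member and no other tested probe, or 0%, had a Benjamini-Hochberg adjusted p below 0.05, although 4723 probes had an unadjusted p below 0.05. The methods' t-test also gave 0 adjusted calls, and limma with array weights gave 7862 of 25555. With those weights every member probe except Calb1 probe 4, Pvalb, Ncald probe 2 and both Calm3 probes was below 0.05. The limma adjusted p of Calb1 was then 0.0203 for probes 1 and 2, 0.0280 for probe 3 and 0.0703 for probe 4. Across member probes the lowest reading of the 11 rats fell to saline rat 2 in 6 probes, saline rat 3 in 5, saline rat 6 in 3 and saline rat 4 in 1. The highest fell to heroin rat 6 in 6 probes, and the array of this rat had the lowest median signal of the 11. After quantile normalization saline rat 2 was lowest in 0 of the 15 and saline rat 3 in 5.

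**Figure D4:**
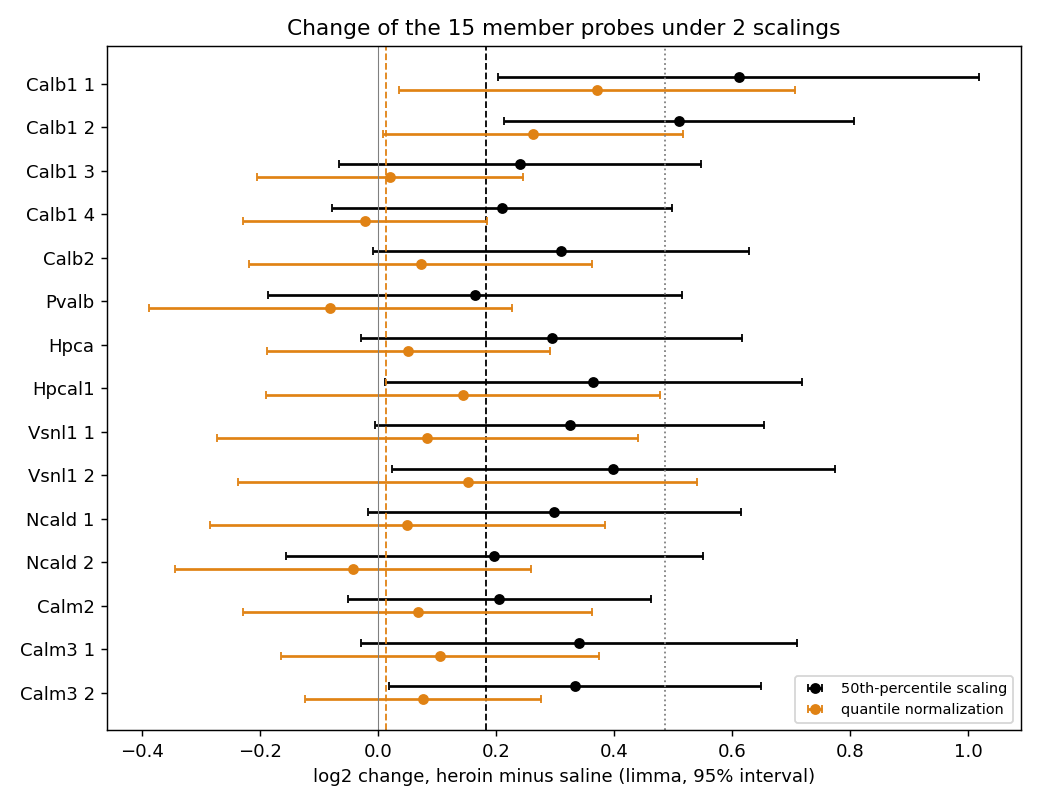
Log2 change with its 95% limma interval for the 15 member probes after 50th-percentile scaling (black) and after quantile normalization (orange). Dashed lines mark the median change of all tested probes under each scaling (0.18 and 0.01) and the dotted line marks 1.4-fold; only the Calb1 1 and Calb1 2 points in black pass the dotted line.

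Further genes of calcium binding and handling were read from 3 lists. Of 22 further EF-hand genes with a probe, 20 were tested, 0 were called higher and 1 lower (5% of those tested, against 2.72% of all probes), with a median log2 change of 0.15 (-0.08 after quantile normalization). The one called was Calml3, a calmodulin-like gene read at 0.47 ± 0.07 array medians in heroin rats (SD, n = 6) and 0.68 ± 0.17 in saline rats (SD, n = 5), a log2 change of -0.53 (limma adjusted p = 0.263) that was -0.44 and not called after quantile normalization. The ends of the list were Scgn (secretagogin, a calcium sensor of some interneurons) at 0.52 and Ocm (oncomodulin, a parvalbumin relative) at -0.54. After quantile normalization Ocm, at -0.77, was the only EF-hand gene called.

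Of 12 tested calmodulin partners, such as calcineurin subunits and calmodulin-binding membrane proteins, none was called by limma under either scaling, and the median log2 change was 0.16 (-0.01 after quantile normalization). They ran from -0.10 for Pde1a, a calmodulin-dependent phosphodiesterase, to 0.41 for Gap43, a growth cone protein that binds calmodulin. Of 11 tested genes that remove calcium from the cytosol, 1 (9.09%, against 2.72% of all tested probes) was called. It was Atp2c1, the calcium and manganese pump of the Golgi, at a log2 change of 0.49 (limma adjusted p = 0.263), which was 0.24 and not called after quantile normalization. The lowest of these was the plasma membrane pump Atp2b1 at 0.11.

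Interneuron markers were read beside Calb1 because calbindin is made by some interneurons. All 12 with a probe were tested and 1 was called (8.33%, against 2.72% of all tested probes). It was the neuropeptide gene Vip, at a log2 change of 0.49 (limma adjusted p = 0.263, exact permutation p = 0.00433) and 0.25 after quantile normalization, where it was not called. The Vip change of 0.4865 lay just past the 1.4-fold limit, a log2 of 0.4854. Vip was also not called with normexp background correction, the authors' relative values or marked spots kept. The median of the list was 0.25, against 0.03 after quantile normalization, and its summed signal ran from 865 to 1124 array medians in heroin rats and from 677 to 991 in saline rats. Most of that sum came from Cck, at means of 436 in heroin and 375 in saline rats, and Sst, at 193 and 164. The sum therefore mostly follows those genes. The part of the interneuron markers in the Calb1 change was not tested. Of the excitatory neuron list of 9 names only Slc17a7 was found, and it was not called. Striatal markers had 6 genes tested and 0 called, with summed signals from 29.1 to 38.6 in heroin rats and from 25.4 to 47.7 in saline rats. Of 7 oligodendrocyte, 6 astrocyte, 5 endothelial and 2 blood markers tested none was called under either scaling. Rats differed widely within both groups in some of these lists. The summed oligodendrocyte signal ran from 355 to 888 array medians in heroin rats and from 298 to 928 in saline rats. The summed blood signal ran from 6.94 to 20.2 and from 7.53 to 20.3. Of 5 microglia markers tested 1 was called (20%, against 2.72% of all tested probes). It was Ptprc, with a log2 change of -0.50 (-0.44 and not called after quantile normalization). Its mean signal was low, at 0.62 array medians in heroin rats and 0.87 in saline rats. The other tested microglia markers had changes above zero, of 0.16 for Aif1, 0.27 for Cx3cr1, 0.24 for Csf1r and 0.06 for Cd68. Those of Aif1 and Cd68 lay below the 0.18 of all tested probes. After quantile normalization the changes of Aif1, Cx3cr1, Csf1r and Cd68 were -0.09, 0.18, 0.01 and -0.08.

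The genes most like the interneuron buffers were sought among 7910 to 7913 probes of named genes, by the Pearson r of quantile-normalized log2 signals over the 11 arrays, with the brightest probe of each member. The second Calb1 probe was followed most closely by Acvr2b, an activin receptor, at 0.95, then by Zcchc12 at 0.90 and Vip at 0.90. Calb2 was followed by Mrrf at 0.93, St7l at 0.84 and Verge at 0.82. Pvalb was followed by Ldhb, a lactate dehydrogenase subunit, at 0.90, then by Tmem33 at 0.85 and Slc1a6, a glutamate transporter, at 0.85. For comparison, 95% of the candidate probes had an r below 0.56 with Calb1, 0.47 with Calb2 and 0.49 with Pvalb. The points share 2 groups and 6 scans, and the values are a description with no test. Within groups the r of Acvr2b and Vip with Calb1 were 0.92 and 0.84.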

How the data were processed

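The authors labelled RNA of each rat with Cy3, hybridised it to 1 Agilent array and deposited an intensity for each spot. Feature Extraction (file headers give version 9.5.1.1) had subtracted background and had not scaled the arrays to each other. A further table that the authors deposited holds a ratio per probe and rat, relative to the probe's median, and served as an alternative. The number of arrays limits the precision.

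Control spots and those the software marked as outliers were dropped here, and a floor of 5 was set. Intensities were expressed relative to the array's 50th percentile over non-control probes. The log2 of each spot was then taken, and replicate spots were averaged on that scale. Of the 25587 probes above background on all 11 arrays, 32 had too few usable spots for the fit, which needed at least 2 arrays of each group, and 25555 were tested in R 4.3.3 with the lmFit and eBayes functions of limma 3.58.1. Tests were two-sided with Benjamini-Hochberg adjustment, and the procedure was checked on simulated data. The simulated probes varied independently and had no shift common to all of them, so the check does not cover the shift described above. Member probes also had an exact permutation test over the 462 divisions of the rats, whose smallest p is 0.00216. Every member probe had a value on every array.

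All member probes are described. Of the other lists, called genes and the highest and lowest change of each pathway list are named, by their brightest probe. The members and lists were chosen with earlier results of these data known, and the test of probe pairs was chosen after the data were seen. Replicate numbers mark a shared scan in the file headers, and no source used here says that they mark a shared litter or day. Gene names are those of the array design. The study's RT-qPCR and its rats with 1 day of abstinence were not analysed here.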

Additional observations from a re-analysis of the deposited data

Results flagged for a closer look

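In the 30 sets of values made by 15 member probes and 2 groups, the highest and lowest rat were compared with the others by Dixon's criterion, and 2 sets held a rat far from its group. Chance flags about 1 in 20 groups. On the third Calb1 probe, heroin rat 5 read 4.92 array medians while the other heroin rats read 6.08 to 6.80. On the second Vsnl1 probe, heroin rat 6 read 70.3 while the other heroin rats read 111 to 138.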

How the results depend on the processing

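The count of called probes among the 15 members and over all tested probes was 2 and 694. It was 0 and 779 with arrays scaled to the 75th percentile, 0 and 675 with the median of detected probes, 0 and 457 with quantile normalization, 1 and 126 with normexp background correction, 1 and 308 with the methods' t-test and 4 and 2380 with array weights. Without a filter on dim probes 1560 probes were called, and with detection on all arrays of either group 1067, with 2 members in each. The split between higher and lower calls followed the scaling, with 457 higher of 694 at the 50th percentile, 218 of 457 after quantile normalization, 33 of 779 at the 75th percentile and 42 of 675 with the median of detected probes. Leaving out 1 rat gave 0 to 3 member calls (0 without saline rat 3, 1 without heroin rat 2, 3 without heroin rat 6 or saline rat 5) and 343 to 2352 calls in all (343 without saline rat 2, 393 without saline rat 3, 2352 without saline rat 5).

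With the replicate number as a block, 2 members and 805 probes were called and no member call changed, while Atp2c1, at 0.49, was no longer called. The deviations of same-numbered arrays from their group means had r of 0.38, -0.13, 0.35, 0.02 and -0.24, with no common sign. In 1 of 5 pairs the heroin array correlated best with the saline array of its own number. Quantile normalization with the block, an alternative chosen after seeing the data, called 0 members and 410 probes. Log2 changes reversed sign for probe 4 of Calb1 (-0.0083 at the 75th percentile, -0.0224 with quantile normalization, -0.0066 with quantile normalization and the block), Pvalb (-0.0538, -0.0808 and -0.0201 in that order, and -0.0265 with the median of detected probes), probe 2 of Ncald (-0.0208, -0.0424 and -0.0554) and Calm2 (-0.0125 at the 75th percentile). Of the list genes called, when 1 of the 11 rats was left out Calml3 was called 8 times (not without heroin rats 3 or 4 or saline rat 2), Ptprc 7 (not without heroin rats 3 or 6 or saline rats 2 or 4), Atp2c1 6 (not without heroin rats 2 or 3 or saline rats 2, 3 or 4) and Vip 5 (not without heroin rats 2, 3 or 6 or saline rats 2, 3 or 6). Scaling before the floor, the authors' relative values, marked spots kept, eBayes with trend and robust, and scan as random block kept 2 member calls. Over all tested probes the calls were 694, 638, 687, 698 and 635 in that order. The authors' relative values cover fewer probes, with 13 of the 15 member probes, and lack Vsnl1 probe 1 and Calm2. Vip was not called with the authors' relative values (0.4847), marked spots kept (0.4839) or normexp background correction (0.478). The causes of these differences were not tested.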
